A study of Mus musculus with 16 samples.

Results

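Deep later-intron clusters are the stretches of crosslinked RNA that lay in the second or a later intron of a protein-coding gene, more than 500 nt from both flanking exons. They were taken from single-end eCLIP of PGC-1α, in which ultraviolet light fixes a protein to the RNA it touches and the RNA pieces that come down with an antibody are sequenced. A cluster was counted as a member if its midpoint fell, on the same strand, in intron 2 or beyond of the gene's transcript with the longest coding sequence and in no exon of any annotated transcript. By this rule 420109 of 1331383 clusters were members, and they lay in 6889 genes and 24359 introns. The annotation holds 92577 later introns with such deep sequence, in 15725 genes, with a median length of 2662 nt.

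The cells were freshly isolated primary hepatocytes of C57BL/6J mice, kept overnight in starvation medium. Control cells were labelled untreated, and the other cells received 200 nM glucagon for 3 h. Endogenous PGC-1α was precipitated from all of them after crosslinking, and libraries were made from a lower and an upper band, which the labels do not describe further. The 4 groups (control lower, control upper, glucagon lower and glucagon upper) held 2 replicates each, which gives 8 IP libraries. The labels do not say whether replicates came from separate mice or cultures, so p-values may measure technical spread only. Of 12 hepatocyte marker genes, 11 had a cluster at any position, while 1 of 7 Kupffer cell, 1 of 7 endothelial, 1 of 7 stellate and 2 of 6 cholangiocyte markers had one.

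PGC-1α is a transcriptional coactivator that glucagon induces in the fasted liver, where it raises the expression of genes of gluconeogenesis, fatty acid oxidation and mitochondria. It carries an RNA recognition motif and an arginine- and serine-rich stretch near its carboxy terminus, features found in proteins that act on RNA during splicing. Introns are largely removed while the gene is being transcribed, so protein bound deep inside an intron has met unspliced RNA or an intron not yet degraded. A later intron of one transcript can be the first intron of another, since many genes have several start sites.

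In the sections that follow, an enriched cluster is one whose deposited fold over input is at least 3 on the log2 scale and whose deposited −log10 p is at least 3. Both values are the authors' own. Of the members, 8958 were enriched, in 802 genes and 1062 introns.

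Several enriched members overlapped a window around an annotated start of transcription inside the intron. RefSeq start windows, which run from 250 bases before to 50 bases after a transcript start, were searched for enriched members on either strand. The windows kept do not cover every chromosome. Of those kept, the 5 that enriched members overlapped in at least 5 libraries are shown because deep clusters lie close to an annotated start there. Each is 300 bases of the GRCm38.p6 assembly (the mm10 build), written 5′ to 3′ on the strand of the members. Capitals mark bases that lay inside enriched members of at least 2 libraries. The start itself is base 251 of each sequence, or base 50 in Arhgef10l, whose annotated start is on the opposite strand.
Arhgef10l: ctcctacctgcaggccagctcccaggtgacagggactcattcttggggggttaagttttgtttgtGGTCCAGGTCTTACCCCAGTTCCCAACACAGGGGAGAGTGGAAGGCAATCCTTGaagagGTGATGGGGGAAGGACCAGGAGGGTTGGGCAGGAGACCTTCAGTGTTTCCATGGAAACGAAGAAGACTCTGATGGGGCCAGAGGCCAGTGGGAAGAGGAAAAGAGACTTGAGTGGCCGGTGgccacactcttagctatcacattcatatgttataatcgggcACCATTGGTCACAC
Foxo3: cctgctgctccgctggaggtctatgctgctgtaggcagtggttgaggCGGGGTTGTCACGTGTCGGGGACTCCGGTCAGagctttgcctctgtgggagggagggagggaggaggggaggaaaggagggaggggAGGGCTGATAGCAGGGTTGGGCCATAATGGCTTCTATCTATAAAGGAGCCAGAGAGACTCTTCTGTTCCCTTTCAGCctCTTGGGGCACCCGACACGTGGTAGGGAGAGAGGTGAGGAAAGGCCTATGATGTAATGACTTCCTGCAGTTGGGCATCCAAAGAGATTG
Fbrsl1: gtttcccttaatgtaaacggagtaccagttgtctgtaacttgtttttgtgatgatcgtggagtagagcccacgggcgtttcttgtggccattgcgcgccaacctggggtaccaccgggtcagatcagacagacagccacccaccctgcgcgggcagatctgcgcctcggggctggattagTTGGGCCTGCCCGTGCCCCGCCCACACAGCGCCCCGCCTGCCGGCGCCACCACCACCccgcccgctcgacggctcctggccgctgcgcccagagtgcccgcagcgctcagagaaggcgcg
Sbno2: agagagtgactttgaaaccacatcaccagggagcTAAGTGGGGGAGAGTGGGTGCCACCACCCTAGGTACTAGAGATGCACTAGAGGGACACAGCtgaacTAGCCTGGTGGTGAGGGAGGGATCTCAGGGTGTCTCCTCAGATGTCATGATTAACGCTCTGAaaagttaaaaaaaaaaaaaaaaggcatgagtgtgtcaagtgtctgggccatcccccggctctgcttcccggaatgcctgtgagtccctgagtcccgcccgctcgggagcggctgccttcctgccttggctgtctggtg
Mia2: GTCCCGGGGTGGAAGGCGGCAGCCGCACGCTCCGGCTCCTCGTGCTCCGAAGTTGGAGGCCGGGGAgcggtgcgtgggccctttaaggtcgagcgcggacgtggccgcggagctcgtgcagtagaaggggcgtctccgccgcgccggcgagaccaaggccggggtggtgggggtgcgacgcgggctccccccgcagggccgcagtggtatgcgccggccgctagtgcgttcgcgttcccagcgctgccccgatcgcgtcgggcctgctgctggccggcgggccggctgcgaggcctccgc

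The Arhgef10l window is chr4:140604857-140605156 (minus strand), in intron 4 of 28 of a gene for a guanine nucleotide exchange factor of small GTPases. It belongs to the start of Gm42335, which runs on the opposite strand. Enriched members overlapped it in 6 libraries, with log2 folds of 3.57, 3.86, 4.16 and 4.43 in the control libraries (lower replicates 1 and 2, then upper replicates 1 and 2), 4.70 in glucagon lower replicate 2 and 3.31 in glucagon upper replicate 2. The Foxo3 window, chr10:42273842-42274141 (minus strand), lies in intron 2 of 3 of the gene for a forkhead factor that insulin signalling keeps out of the nucleus. It holds the start of Gm38485 on the same strand, and enriched members overlapped it in the same 6 libraries with log2 folds of 3.12 to 4.66. The capitals cover the start in Foxo3 (with gaps, between bases 48 and 300) and begin past it in Arhgef10l (base 66). In both windows the 2 libraries without an enriched member were replicate 1 of the glucagon lower and the glucagon upper band.

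The Fbrsl1 window, chr5:110387078-110387377 (minus strand), lies in intron 5 of 18 and was overlapped in 5 libraries with log2 folds of 3.31 to 4.37. The Sbno2 window, chr10:80101138-80101437 (minus strand), is in intron 2 of 32 and was overlapped in 5 libraries with log2 folds of 3.11 to 4.13. The Mia2 window, chr12:59131231-59131530 (plus strand), is in intron 6 of 29 of a gene for a cargo receptor of the endoplasmic reticulum, with log2 folds of 3.07 to 5.19 in 5 libraries. In these 3 windows the capitals end before the start, at base 237 in Fbrsl1, 162 in Sbno2 and 66 in Mia2. GC content was 53.7% in the Arhgef10l window, 57.7% in Foxo3, 65.7% in Fbrsl1, 55.0% in Sbno2 and 76.3% in Mia2. Over all 32851 RefSeq start windows the median was 52.7%, with quartiles of 45.7% and 61.7%. The windows of Fbrsl1 and Mia2 lay above the upper quartile and the other 3 inside the quartiles.

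The number of members differed widely between libraries and followed the total number of clusters. Members numbered 37629 and 55443 in the control lower libraries, 82672 and 92425 in control upper, 4589 and 54004 in glucagon lower, and 26803 and 66544 in glucagon upper. Glucagon lower replicate 1 stands apart, with 26279 clusters in all against 97629 to 260814 in the other 7. The files give no read counts, so depth is known only through these cluster numbers. Members made up 17.5% to 35.4% of a library's clusters, with the lowest share in glucagon lower replicate 1. They were short, with a median of 42 nt over all members.

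The enriched members numbered 1069 and 1432 in control lower, 1148 and 1536 in control upper, 279 and 712 in glucagon lower, and 842 and 1940 in glucagon upper. As a share of the members this was 2.84% and 2.58% in control lower and 1.39% and 1.66% in control upper. It was 6.08% and 1.32% in glucagon lower and 3.14% and 2.92% in glucagon upper. The 2 glucagon lower replicates thus hold both the highest and the lowest share. Exact 95% binomial intervals, which cover counting error only, ran from 5.41% to 6.81% for the former and from 1.22% to 1.42% for the latter. The fold values of glucagon lower replicate 1 were unlike the others. There 42.4% of members reached a log2 fold of 3, and most of these failed on the p-value. In glucagon lower replicate 2 that share was 3.06%, and in the control and glucagon upper libraries it was 3.04% to 15.1%.

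Deep clusters of later introns were enriched less often than deep clusters of first introns. The share for first introns was 5.26% and 5.45% in control lower, 3.29% and 3.94% in control upper, 6.61% and 2.25% in glucagon lower, and 5.31% and 5.58% in glucagon upper. In each library the first introns lay higher, with the narrowest gap in glucagon lower replicate 1. The mean was 2.74% ± 1.53 (SD, n = 8 libraries) for members and 4.71% ± 1.43 for first introns, a difference of -1.97 ± 0.83 percentage points (two-sided exact sign-flip test over the 8 libraries, p = 0.0078, the smallest that 8 libraries allow, adjusted p = 0.0100 over 9 tests). The difference was -1.53 points when taken within genes that hold both kinds of cluster. It was -1.17 points beyond 1000 nt from exons (exact p = 0.0234). It was -0.90 points when both kinds lay more than 20 kb from an upstream 5′ end (exact p = 0.0469). That last setting was added after seeing the data. Bands with the same treatment and number count as separate units in this and the following sign-flip tests. With a replicate block that averages them first, the exact p of this difference was 0.125, the smallest that 4 units allow, so the call is lost.

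Later introns also carried fewer clusters per length of deep sequence. For each library, only the deep sequence of genes that held a cluster in that library was counted. Their density was 210 ± 103 clusters per Mb (SD, n = 8) against 365 ± 167 in first introns, a log2 ratio of -0.84 ± 0.11 that was negative in 8 of 8 libraries (exact sign-flip test, adjusted p = 0.0100). For enriched clusters the density was 4.59 ± 1.82 per Mb against 15.8 ± 7.31, a log2 ratio of -1.71 ± 0.26, again negative in 8 of 8 (adjusted p = 0.0100, same exact test). With the replicate block the exact p was 0.125 for both densities and for the median fold that follows. The median log2 fold of all members was lower by 0.21 ± 0.15 than that of first-intron clusters (medians 1.63 ± 0.42 and 1.83 ± 0.48, adjusted p = 0.0352, exact sign-flip test). That last difference was 0 in 2 libraries, glucagon lower replicate 2 and glucagon upper replicate 1. It no longer passed (exact p = 0.0625) when any one of 6 libraries was left out, namely the 4 control libraries, glucagon lower replicate 1 or glucagon upper replicate 2.

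Against later-intron clusters within 500 nt of an exon, members were enriched more often. The exon-near clusters were enriched at 1.50% and 1.38% in control lower, 0.70% and 0.73% in control upper, 4.19% and 0.74% in glucagon lower, and 1.82% and 1.42% in glucagon upper. Their mean was 1.56% ± 1.14 (SD, n = 8), and members lay above it by 1.18 ± 0.43 points in 8 of 8 libraries (exact sign-flip test, adjusted p = 0.0100). With the replicate block the exact p was 0.125. Within genes that hold both kinds, the direction turned: members lay 0.22 points lower (-0.22, exact p = 0.0469). The pooled difference therefore does not hold gene by gene.

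**Figure D1:**
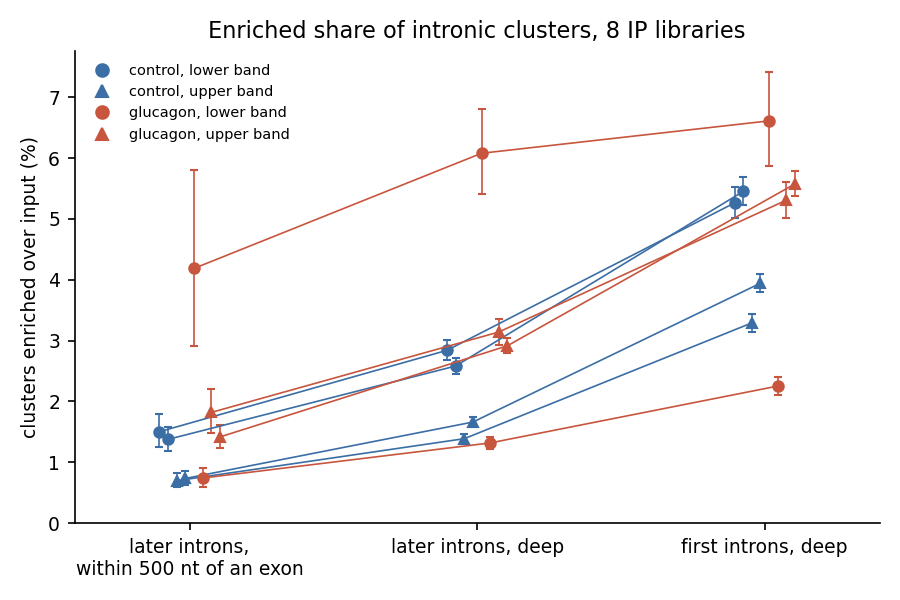
Percent of clusters enriched over input (vertical axis) for later-intron clusters near exons, deep later-intron clusters and deep first-intron clusters, 1 line per IP library with exact 95% binomial intervals that cover counting error only. All 8 lines rise from left to right, and glucagon lower replicate 1 lies highest at each position.

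The enriched share was lowest from intron 8 on in 7 of the 8 libraries, the exception being glucagon lower replicate 1. Intron 2 alone held 29.6% of the members and 38.9% of the enriched members, and introns 8 and beyond held 26.4% and 13.8%. The mean share enriched was 3.19% ± 1.15 (SD, n = 8) in intron 2, 3.39% ± 1.82 in intron 3, 3.07% ± 1.76 in intron 4 and 1.99% ± 0.92 in intron 5. It was 3.23% ± 2.36 in intron 6, 2.64% ± 2.03 in intron 7 and 1.88% ± 1.94 from intron 8 on. Single genes weigh on these values. 2900026A02Rik supplied 48.7% of the enriched members of sixth introns, and Zfhx3 47.9% of those of seventh introns. Without the 10 genes with most enriched deep intronic clusters, the mean was 1.04% in intron 6, 1.80% in intron 7 and 1.70% from intron 8 on, so that sixth introns were lowest. Without glucagon lower replicate 1 the value from intron 8 on was 1.22%.

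Intron 2 exceeded the later introns by 1.04 and 1.42 points in control lower, 0.67 and 0.96 in control upper, 0.56 in glucagon lower replicate 2, and 0.45 and 1.33 in glucagon upper. In glucagon lower replicate 1 it was lower, at -1.39 points. The mean difference of 0.63 ± 0.89 points did not pass (exact sign-flip test, p = 0.0859, adjusted p = 0.0859). It passed without glucagon lower replicate 1 (0.92 points, exact p = 0.0156), and within genes it was 0.012 points (exact p = 0.992).

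Long introns held a larger enriched share than short ones. In introns over 10 kb 3.02% ± 1.58 (SD, n = 8) of members were enriched and in shorter introns 1.94% ± 1.32, a difference of 1.08 ± 0.37 points that ranged from 0.58 to 1.58 over the 8 libraries (exact sign-flip test, adjusted p = 0.0100). Within genes it was 0.48 points, and without the same 10 genes 0.64 points. With the replicate block the exact p was 0.125. By length class the mean share was 1.36% up to 2 kb, 0.97% from 2 to 5 kb, 2.82% from 5 to 10 kb and 2.60% from 10 to 20 kb. It was 3.12% from 20 to 50 kb, 3.88% from 50 to 100 kb and 2.16% above 100 kb. The shortest class fell to 0.51% without glucagon lower replicate 1, and Hnrnpk, the gene of an abundant pre-mRNA-binding protein, supplied 41.5% of its 41 enriched members. The class from 50 to 100 kb lay highest and held 32.8% of all enriched members against 20.3% of members. Without the 10 genes with most enriched deep intronic clusters it stood at 2.56%, below the classes from 20 to 50 kb (2.85%) and from 5 to 10 kb (2.69%). The median intron of an enriched member measured 42725 nt and that of the other members 26476 nt. Both medians are over clusters, so an intron counts once for each of its clusters. The former is the length of intron 2 of Ahdc1, which held 181 enriched members.

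**Figure D2:**
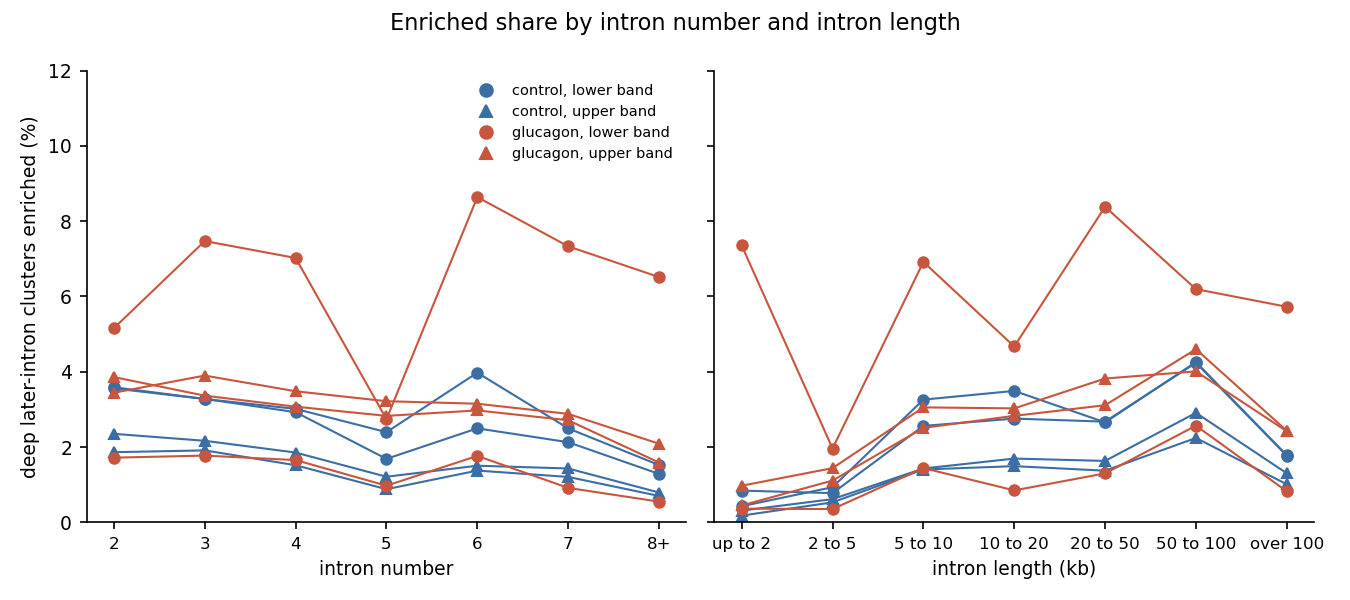
Percent of deep later-intron clusters enriched over input by intron number (left) and by intron length in kb (right), 1 line per IP library. The line that lies highest in most classes is glucagon lower replicate 1. The other 7 lines are lowest from intron 8 on and highest between 50 and 100 kb.

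Members close downstream of an annotated 5′ end, where transcription of some transcript of the gene begins, had the highest enriched share of the distance classes. Those within 2 kb were enriched at 6.20% ± 1.75 (SD, n = 8) and the other members at 2.53% ± 1.52. The difference was 3.51 and 4.46 points in control lower, 2.97 and 3.58 in control upper, 2.88 and 2.67 in glucagon lower, and 3.88 and 5.37 in glucagon upper. The mean of these 8 positive differences was 3.67 ± 0.90 points (adjusted p = 0.0100, exact sign-flip test), and it was 1.40 points within genes. This comparison was added after seeing the data. With the replicate block the exact p was 0.125. These members were 5.52% of all members and 14.7% of the enriched. Beyond 2 kb the mean share was 2.94% up to 5 kb, 3.15% up to 10 kb, 2.72% up to 20 kb, 2.37% up to 50 kb, 2.16% up to 100 kb and 2.05% farther out. The last value fell to 1.12% without glucagon lower replicate 1.

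Members inside the first intron of another transcript of the same gene made up 31.1% of all members and 48.6% of the enriched. They were enriched at 3.82% ± 1.36 (SD, n = 8) against 2.25% ± 1.65 for the others, a difference of 1.58 ± 0.74 points with the same sign in 8 of 8 libraries (adjusted p = 0.0100 by the exact sign-flip test). The smallest difference, 0.12 points, was that of glucagon lower replicate 1. This comparison too was added after seeing the data. At a log2 fold of at least 4 the mean difference was 0.30 points and did not pass (exact p = 0.117), and within genes it was 0.41 points. Without the 10 genes with most enriched deep intronic clusters it was 0.99 points, and with the replicate block the exact p was 0.125. With such members left out, later introns stood -2.47 points from first introns.

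**Figure D3:**
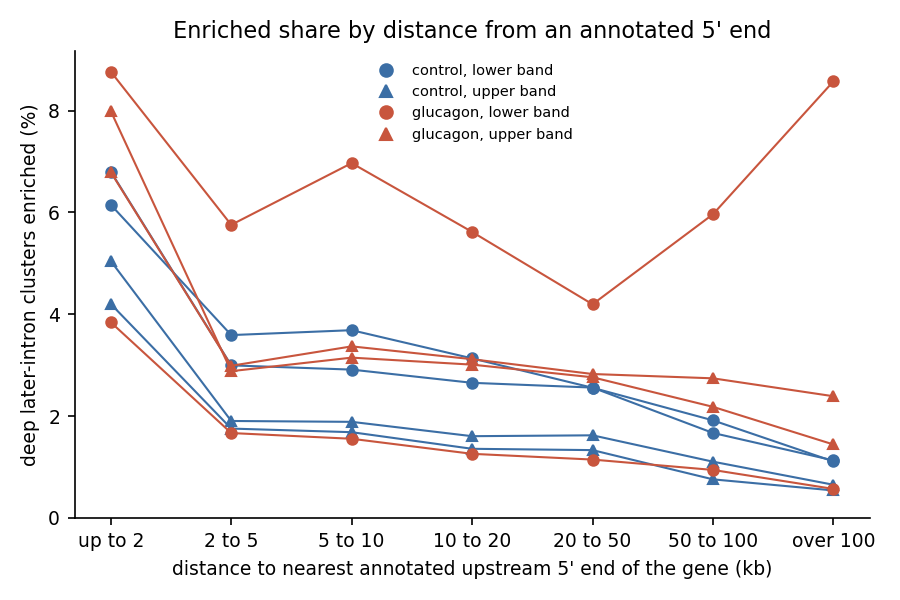
Percent of deep later-intron clusters enriched over input (vertical axis) by distance in kb downstream of the nearest annotated 5′ end of the gene (horizontal axis), 1 line per IP library. All 8 libraries lie higher within 2 kb than in the class from 2 to 5 kb, and the means over libraries go from 6.20% to 2.05% at the far end, where glucagon lower replicate 1 stands at 8.58%.

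Enriched members were gathered in few genes. Of the 8958, the 8 genes with the most held 22.1%, 20 genes held 39.1% and 35 genes held 50%. An enriched member occurred in only 1 library for 339 genes, in at least 2 libraries for 463 genes (6.72% of the genes with a member) and in all 8 for 36. Within introns they lay close together: the median gap between neighbours in the same library was 702 nt, and 59.4% lay in introns with at least 5 of them in that library.

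Tns1, the gene of tensin 1, which ties integrins to actin filaments, had the most enriched members, 337 over the 8 libraries. They numbered 32, 53, 38 and 47 with control and 6, 45, 33 and 83 with glucagon, in the order lower replicates 1 and 2, upper replicates 1 and 2 that is kept from here on. Mtss1, whose protein bends membranes at actin-rich edges, had 33, 37, 34 and 40 with control and 17, 46, 26 and 60 with glucagon. The uncharacterised gene 2900026A02Rik had 44, 44, 38 and 43, then 12, 28, 22 and 60. Counts of all 3 genes overlapped between treatments, and glucagon lower replicate 1, the library with fewest clusters, was lowest in each.

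Zfhx3, a zinc finger homeobox factor, had 34, 38, 32 and 49 enriched members with control and 4, 16, 22 and 52 with glucagon. Sbno2, a coregulator in anti-inflammatory signalling, had 52, 38, 33 and 37, then 1, 14, 18 and 31, with all 4 glucagon libraries below all 4 control libraries. Zbtb16, which encodes the zinc finger repressor PLZF, had 32, 35, 23 and 39, then 12, 42, 6 and 24. Sept9, a filament-forming septin, had 21, 28, 38 and 47, then 0, 1, 14 and 44, so that its count was near 0 in the glucagon lower band and not in the upper. Foxn3, a forkhead repressor, and Ahdc1, an AT-hook protein, had 183 each.

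Single long introns carried most of these. Intron 3 of Mtss1 (chr15:58972561-59055017, minus strand, 82.5 kb) held 291 enriched members, and the middle 90% of them spanned 71.3 kb. Intron 6 of 2900026A02Rik (chr5:113101578-113175204, minus strand, 73.6 kb) held 288, all of them inside the first intron of another transcript and with a median place 42.9 kb into the intron. Intron 2 of Sbno2 (chr10:80086433-80102609, minus strand, 16.2 kb) held 208 with a median at 5.12 kb. Intron 3 of Tns1 (chr1:74016187-74068608, minus strand, 52.4 kb) held 184 and intron 2 of Ahdc1 (chr4:133012288-133055012, plus strand, 42.7 kb) 181. In Zbtb16 none of the 169 enriched members of intron 2 (chr9:48743562-48831742, minus strand) lay in a first intron of another transcript.

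**Figure D4:**
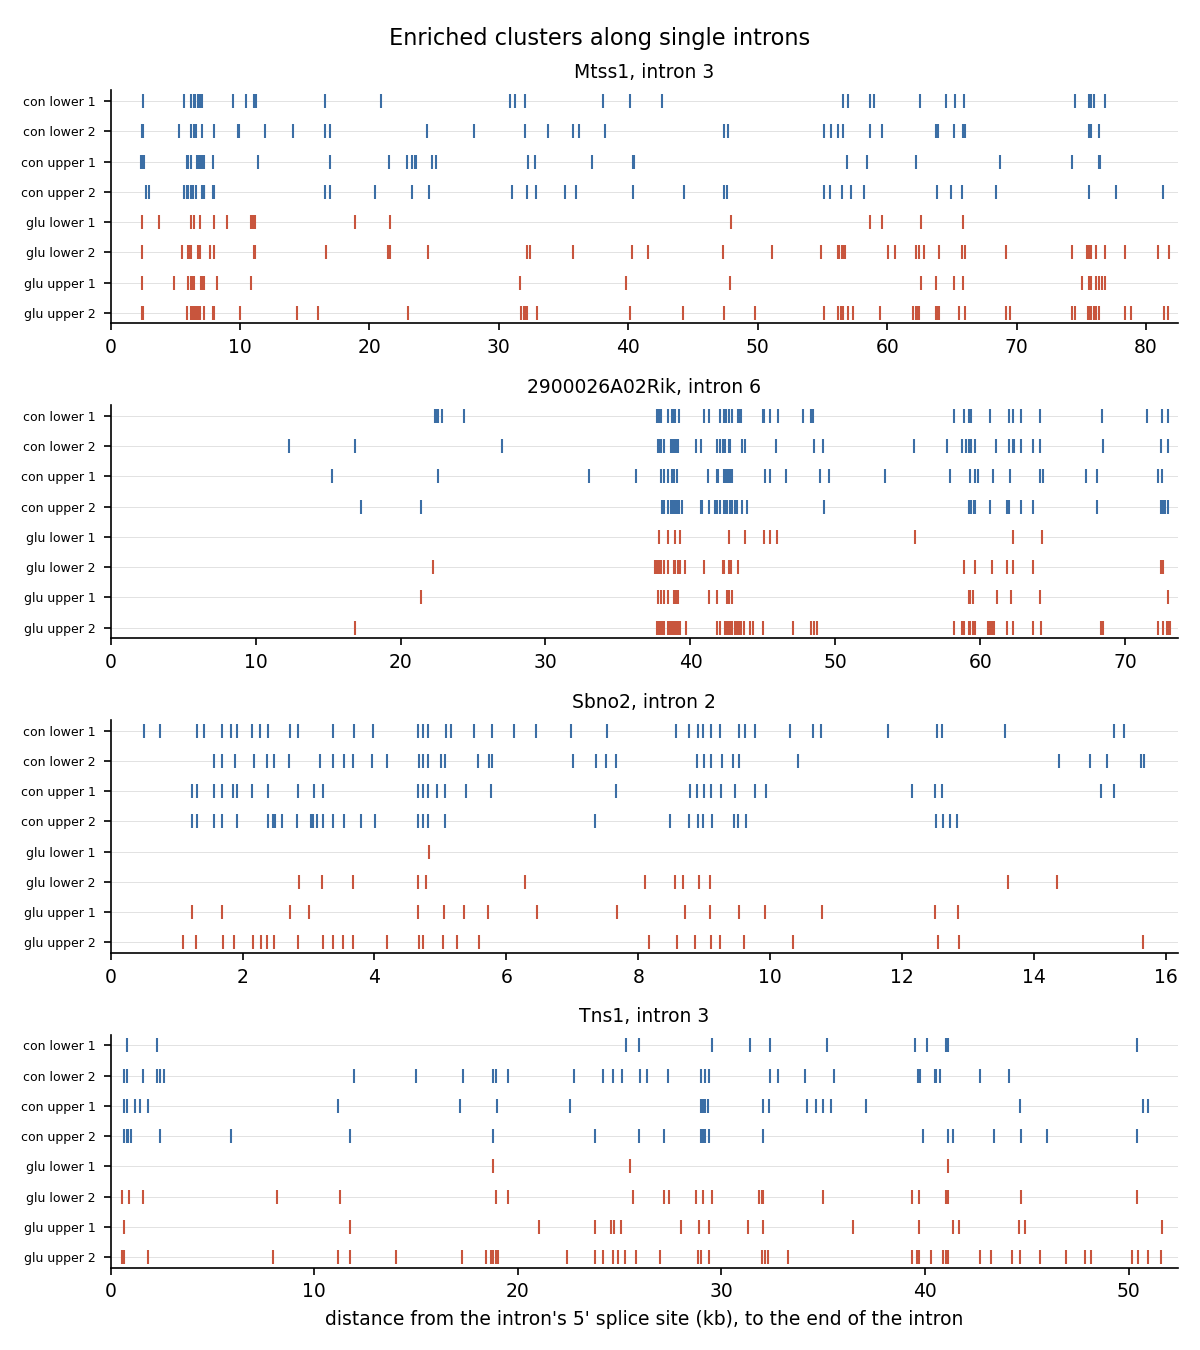
Positions of enriched clusters (ticks) in kb from the 5′ splice site along the 4 introns with the most of them, 1 row per IP library, control (con) in blue and glucagon (glu) in red, each with band and replicate number. Ticks of 2900026A02Rik begin in the main at about the middle of its intron, those of Mtss1 run along the whole intron with a dense group near its start, and the row of glucagon lower replicate 1 is the sparsest in each.

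Merging overlapping enriched members gave 5669 sites. Of these 4158 were enriched in 1 library, 1511 in at least 2 and 10 in all 8, in 7 genes. The Ahdc1 site (chr4:133013345-133013646) lay 1.15 kb from an annotated start, with a mean log2 fold of 4.83 ± 0.91 (SD, n = 8) and its highest value, 6.81, in glucagon upper replicate 1. The site in Epha2 (chr4:141311025-141311246), the gene of an ephrin receptor kinase, had log2 folds of 5.73, 4.12, 6.23 and 4.40 with control and 4.05, 3.16, 4.32 and 3.37 with glucagon. The 2 groups of Epha2 values overlapped. Mtss1 (chr15:59048715-59048897) had 3.92, 3.16, 4.03 and 5.21, then 5.64, 4.40, 3.25 and 3.43.

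The Sbno2 site (chr10:80097759-80097990) had a mean log2 fold of 4.12 ± 0.66 and lay 3.38 kb from an annotated start. Dlgap4, a synaptic scaffold gene, had one at chr2:156722188-156722400 with a mean of 3.84 ± 0.76, in intron 7 but 0.72 kb from an annotated start. The leading 2900026A02Rik site (chr5:113136197-113136364) averaged 3.80 ± 0.47 and lay 39.0 kb into intron 6 but 1.75 kb from an annotated start. The Gm47283 site (chrY:90788763-90788909), mean 5.50 ± 0.39, is uncertain because near-identical sequence elsewhere could take up its reads. Of the 10 sites, 3 were in 2900026A02Rik and 2 in Gm47283.

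Replicates shared a minority of enriched members, counted by overlap. Between 6.60% (glucagon lower replicate 2 against 1) and 32.3% (control upper replicate 1 against 2) overlapped an enriched member of the other replicate. Between 23.0% and 80.5% overlapped any cluster of it. Deep first-intron clusters gave similar ranges, 6.25% to 37.6% for enriched clusters and 18.2% to 82.8% for any cluster. The authors' deposited lists of reproducible peaks held 441 members among 2206 peaks in control lower, 702 of 3692 in control upper, 50 of 413 in glucagon lower (12.1%) and 424 of 2167 in glucagon upper (19.6%). Deep first-intron clusters were 32.8%, 36.9%, 13.1% and 29.7% of these peaks, in the same order of groups. Over the authors' deposited lists, members fell in 240 genes, 17 of them in all 4 lists. 2900026A02Rik led with 30, 28, 7 and 31 peaks in the same order of groups, followed by Mtss1 with 19, 22, 7 and 21 and Sbno2 with 26, 32, 0 and 11. Just inside the distance threshold in those lists lay peaks of Rcc2 at 506 nt, Ergic1 at 509 nt and Dab2ip at 515 nt. Just outside lay Cep170b at 491 nt, Foxo3 at 490 nt and Tns1 at 489 nt.

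Differences between glucagon and control in the amount of deep later-intron clusters could not be called. With so few libraries the exact permutation test cannot give a p below 0.0556. Members were 28.4% and 31.1% of clusters in control lower, 34.4% and 35.4% in control upper, 17.5% and 28.7% in glucagon lower, and 27.5% and 32.0% in glucagon upper. The difference of -5.92 points between glucagon and control (-6.64 in the lower band, -5.20 in the upper) did not pass a two-sided exact permutation test within bands (p = 0.111, adjusted p = 0.222 over 4 tests, with 0.0556 as the smallest p possible from 36 assignments). The percent of members enriched was higher by 1.25 points with glucagon (3.36% ± 1.98 against 2.12% ± 0.70, SD, n = 4 each, exact permutation p = 0.333, adjusted p = 0.444). In the upper band both glucagon libraries lay above both controls, by 1.50 points on average, while the lower band's 0.99 points rested on replicate 1. With 1 library left out at a time, the difference ran from 0.055 points (without glucagon lower replicate 1) to 2.44 points (without glucagon lower replicate 2).

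Differences between the bands could not be called either, since 0.0556 is again the smallest p of the exact permutation test. Members made up 5.93 points more of the clusters in the upper than in the lower band (32.3% ± 3.56 against 26.4% ± 6.09, SD, n = 4 each, exact permutation p = 0.111, adjusted p = 0.222). The enriched share was -0.93 points from lower to upper (exact permutation p = 0.611, adjusted p = 0.611), and it turned to 0.26 points without glucagon lower replicate 1. Within control cells the 2 upper libraries lay below the 2 lower ones, by 1.19 points on average (-1.19).

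By gene, control libraries more often stood above glucagon libraries than below. Each gene's enriched members were taken as a share of the library's enriched members, and a gene was counted if the 4 libraries of one treatment all lay above the 4 of the other. Of 191 genes with at least 8 enriched members, 22 (11.5%) stood lower with glucagon and 2 (1.05%) higher. The 8 members were summed over all libraries, so a gene could pass through a single treatment or band. This filter and the direction of a gene are therefore not independent. Over enriched clusters of every position, 9.45% of 825 genes stood lower and 2.55% higher, so these shares are near the background. No test goes with these counts. Without glucagon lower replicate 1 the counts were 22 lower and 13 higher of 186 genes. No share over all positions is given for that setting. The small number of higher genes thus depended on that library.

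Gfra1, the receptor subunit for glial cell line-derived neurotrophic factor, was one of the 2 that stood higher. It had 3, 0, 1 and 2 enriched members with control and 9, 29, 12 and 18 with glucagon, or 0.12% ± 0.12 of the library's enriched members (SD, n = 4) against 2.41% ± 1.48. The values did not overlap. Its members of any strength numbered 78, 132, 162 and 178 with control and 137, 373, 281 and 377 with glucagon, so the number of clusters was high beside the number of enriched ones. More RNA from the gene and more protein per RNA cannot be told apart here, and in these bulk cultures neither can cell number and RNA per cell. Mtss1 was the other, at 2.81% ± 0.25 with control and 4.68% ± 1.85 with glucagon. Its 2 glucagon upper libraries and the highest control library all stood at 3.09%, so the groups barely separated.

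Macrod1, which removes ADP-ribose from proteins, had 7, 8, 7 and 9 enriched members with control and 0 in each glucagon library. Its members of any strength numbered 85, 81, 113 and 126 with control and 1, 30, 14 and 34 with glucagon. Arhgef10l had 28, 35, 38 and 32 enriched members with control and 0, 4, 10 and 22 with glucagon, or 2.61% ± 0.52 against 0.72% ± 0.56 of the library's enriched members. Its members numbered 84 to 130 with control and 7 to 61 with glucagon. For both genes all glucagon libraries lay below all controls in enriched members and in members.

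Sbno2 had a mean share of 3.20% ± 1.13 with control and 1.52% ± 0.80 with glucagon, with 76 to 86 members against 24 to 64. Arid5b, a DNA-binding regulator of fat storage, had 15, 14, 14 and 18 enriched members, then 2, 4, 3 and 3. Farp1, a guanine nucleotide exchange factor of small GTPases, had 11, 15, 11 and 8, then 0, 0, 1 and 9, and its raw counts therefore overlapped although its shares did not. Among the 22 were also Pik3r1, the regulatory subunit of phosphoinositide 3-kinase, Tcf7l2, a Wnt effector, and the splicing regulators Ptbp1 and Mbnl2, each with 31 or fewer enriched members over all libraries.

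**Figure D5:**
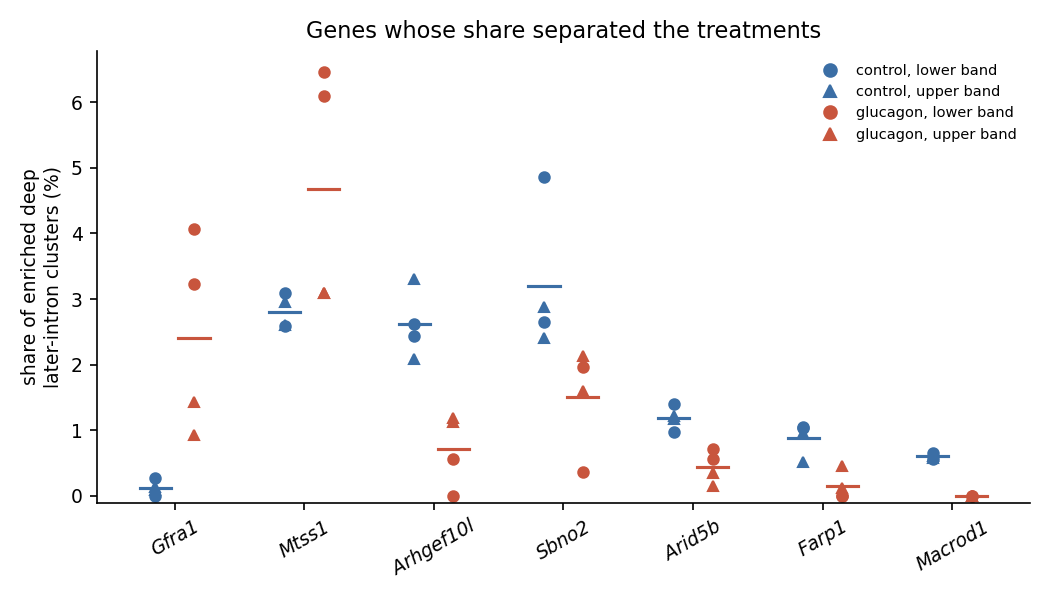
Share of each library's enriched deep later-intron clusters that lay in a gene (vertical axis, percent), for the 2 genes that stood higher and 5 genes that stood lower with glucagon. Points are single libraries (circles lower band, triangles upper band) and bars are means of 4 libraries; Gfra1 reaches 4.07% and Macrod1 is at 0 in all 4 glucagon libraries.

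Sites gave few cases of one treatment only. Of the 5669 sites, 0 (0.0%) were enriched in all 4 glucagon libraries and in no control library, and 6 (0.106%) in all 4 control libraries and in no glucagon library. Over all positions the shares of 19499 sites were 0.00513% and 0.251%. Among the 6 were sites in Cdk6, Rara, 2900026A02Rik, Cald1 and Tns1. At the site in Rara, the gene of retinoic acid receptor alpha (chr11:98951546-98951703), log2 folds were 3.63, 4.86, 3.08 and 4.05 with control and no glucagon library had a cluster. At the site in the cell cycle kinase gene Cdk6 (chr5:3436819-3436906), control log2 folds were 3.91, 4.31, 3.30 and 4.63, and 3 glucagon libraries had clusters, at 4.05, 2.16 and 2.60, the first failing on its p-value alone.

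Of the sites enriched in 3 glucagon libraries and no control library, only the 3 with the highest mean log2 fold are named. The full number of such sites is not given here. The 3 lay in Rab31, a small GTPase, at chr17:65711011-65711037 (log2 folds of 4.64, 5.44 and 3.63), in Ssbp3, a partner of LIM-domain factors, at chr4:106973264-106973493 (4.16, 3.03 and 4.53) and in Zmiz1, a coactivator of the PIAS family, at chr14:25606907-25607017 (3.88, 3.62 and 3.68). Control libraries held clusters below the enrichment rule at all 3. They numbered 3 libraries in Rab31, 3 in Ssbp3 and 1 in Zmiz1. In Rab31 the cluster of control upper replicate 1 had a log2 fold of 3.23, above the fold threshold.

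Between bands, 9 genes (4.71% of 191) stood higher in all upper libraries and 3 (1.57%) in all lower libraries, against 4.73% and 2.42% of genes over all positions. Tspan9, a tetraspanin, had 6, 9, 6 and 14 enriched members in the upper libraries (control, then glucagon) and 1, 2, 0 and 1 in the lower. Vav2, another exchange factor of small GTPases, had 5, 11, 5 and 11 against 1, 5, 0 and 1, so that its counts touched while its shares did not overlap. Gm20431, Fam20c and Dcun1d4 followed. Zmiz1 stood higher in the lower band, at 3.57% ± 1.81 of enriched members (SD, n = 4) against 1.47% ± 0.36, and so did Nedd4l, a ubiquitin ligase, and Pawr.

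An enriched member in at least 2 libraries, found in 6.72% of all genes with a member, was counted by gene group, with no test between groups. Among chromatin and transcription regulators it held for 14 of 46 genes, led by Zfhx3, Zmiz1, Nfic (a nuclear factor I protein) and Arid1b (a subunit of the BAF remodelling complex). Among genes of the cytoskeleton, adhesion and its small GTPases it held for 13 of 50, led by Tns1, Epha2, the small GTPase gene Rhoq and Agap1. Of these lists, the former had a median of 143 members per gene and the latter 126.5, against 13 over all genes. The share of genes meeting this rule rose with the number of members, from 0.639% of genes with 1 to 10 members through 24.8% with over 100 and up to 300 to 67.0% with more than 300. The 24.8% is near the 30.4% of the chromatin list and the 26.0% of the cytoskeletal list, and the part of member number in the groups' counts was not tested.

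Among insulin and FoxO signalling genes 5 of 26 met the rule, namely Akt1 (91 enriched members), Foxo3 (81), Pik3r1 (16), Grb14 (4) and the receptor gene Insr (3). Foxo3 had 12, 12, 8 and 16 with control and 3, 8, 5 and 17 with glucagon, and Akt1, the kinase that phosphorylates FoxO factors, had 13, 17, 19 and 13, then 0, 5, 8 and 16. Both genes' counts overlapped between treatments. Nuclear receptors and coregulators gave 6 of 31, among them Rora (92), Ppard (69) and Rara (39). Rora, a receptor that drives clock genes, had 10, 10, 8 and 17, then 2, 15, 9 and 21. It was also 1 of the 2 clock genes of 15, the other being the casein kinase gene Csnk1e with 5.

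Gluconeogenesis and glycolysis gave 3 of 18: Gpi1 (glucose-6-phosphate isomerase), with 13, 9, 9 and 13 enriched members and then 2, 15, 5 and 19, Got1 with 8 in all and the pyruvate carboxylase gene Pcx with 2. Lipid and cholesterol synthesis gave 3 of 21, with Gpam (the first acyltransferase of triglyceride synthesis) at 15, Elovl6 at 14 and Dgat2 at 4. Glucagon and cAMP response genes gave 3 of 23, Pde4d at 6, Akap13 at 4 and Nr4a1 at 2. Splicing and RNA-binding genes gave 4 of 47, Hnrnpk, Ptbp1, Mbnl2 and Srpk1. No gene met the rule among 22 of fatty acid oxidation and ketogenesis, 11 of secreted plasma proteins and 23 of oxidative phosphorylation, groups with medians of 11, 12 and 7 members per gene.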

How the data were processed

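Single-end eCLIP of PGC-1α in mouse primary hepatocytes gave 16 libraries, of which the 8 IP libraries had cluster files and the 8 inputs were not analysed here. The submitters' processing notes name cutadapt and STAR and the mm10 build. Which peak caller was used, and how peaks were judged reproducible, is not given in the sources used here. The deposited files have no header: their 2 values read as a −log10 p-value, capped at 400, and a log2 fold over input, both the authors', computed library by library before deposit. No reads, counts or RNA levels were recomputed.

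Clusters were placed by midpoint and strand in GENCODE M21 with Python 3.11.15, pandas 2.3.3 and numpy 2.4.6, after a check on simulated clusters. Ties in coding length were settled by spliced length. Sites merged enriched members that shared 1 base on a strand (bedtools 2.31.1). Groups came from the sample titles. Differences within libraries were tested by exact sign flips, treatments and bands by exact permutation within strata, with Benjamini-Hochberg adjustment (scipy 1.17.1). Counts of genes and sites that separate groups have no test and are read against the same counts over all positions. Named genes were those with most enriched members, the sites in most libraries, the largest separated shares, and up to 4 members of each list. The start windows, the comparisons by 5′ end and by first intron of another transcript, and the alternatives that use them were added after seeing the data. The members and lists were chosen with earlier results of these data known. Within a treatment, deviations of gene shares from their group means were weakly correlated between bands of the same number (0.118 with control, 0.123 with glucagon, over 191 genes). The labels do not give such a pairing, and correlations this small do not establish it. Bands of the same number were taken as paired as an assumption, and blocked values stand beside the results they change. Alternatives covered thresholds, distance, left-out libraries or genes, within-gene differences and the replicate block. A few items that the naming rule picks are not reported here.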

Additional observations from a re-analysis of the deposited data

How the results depend on the processing

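Of 205 recomputed values, 168 kept their direction and their side of the threshold, or stayed within 1.5 times a count. The replicate block, which averages bands of the same treatment and number, cannot give a p below 0.125, and it gave that p for the 8 differences within libraries that had passed: -1.97 (first introns), 1.18 (near exons), 1.08 (long introns), -0.206 (median fold), -0.84 and -1.71 (densities), 1.58 (first intron of another transcript) and 3.67 points (5′ end). It changed no other call. Between treatments, the same correlation for same-numbered libraries of a band was 0.039 in the lower and 0.059 in the upper band. Within genes the difference from exon-near clusters reversed to -0.216 points. The band difference in enriched share reversed to 0.262 without glucagon lower replicate 1 (range -2.12 to 0.262 over left-out libraries). The intron 2 difference passed at a log2 fold of at least 2 (1.76), without the 10 genes with most enriched deep intronic clusters (1.04), and without glucagon lower replicate 1 (range 0.519 to 0.921). The median fold difference was -0.131 beyond 1000 nt and did not pass, with a range of -0.236 to -0.190 over left-out libraries. The difference for the first intron of another transcript was 0.300 at a log2 fold of at least 4.

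Genes separating the treatments numbered 24, and 5 and 64 at log2 folds of at least 4 and 2, with 25 to 38 over left-out libraries (38 without either glucagon upper replicate). Those separating the bands numbered 12, and 7 with at least 16 enriched members, with 13 to 23 over left-out libraries (23 without control lower replicate 2, 21 without glucagon lower replicate 2). Sites of one treatment only numbered 6, and 0 and 38 at log2 folds of at least 4 and 2, with 9 to 25 over left-out libraries (25 without control lower replicate 1). Leaving out a library loosens the rule of these counts, since fewer libraries must stand apart. The planned comparison of GC content between enriched and other members was not run, since it needs a genome sequence.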
